A study of Arabidopsis thaliana with 6 samples.

Results

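Glycine decarboxylase and serine hydroxymethyltransferase together turn glycine into serine in leaf mitochondria. Their subunit genes were taken by probe set, each named for its locus, from an array study of Arabidopsis thaliana, and all 10 chosen loci had a probe set among the 21430 on the arrays. They comprise both P proteins (GLDP1, AT4G33010_at, and GLDP2, AT2G26080_at), 3 H proteins (GDCH, AT2G35370_at, GDCH2, AT2G35120_at, and GDCH3, AT1G32470_at) and the T protein (GLDT, AT1G11860_at). They further comprise both mitochondrial dihydrolipoyl dehydrogenases, which serve as L protein (mtLPD1, AT1G48030_at, and mtLPD2, AT3G17240_at), and both mitochondrial serine hydroxymethyltransferases (SHM1, AT4G37930_at, and SHM2, AT5G26780_at). The study sampled leaves of 6-week-old, soil-grown, short-day plants, with no genotype or accession named in the labels. Plants in 3 pools spent 24 h at 100 ppm CO2 and plants in 3 further pools stayed at 400 ppm, which was also the growth condition of both groups. Each pool held leaves of 4 to 5 plants and was hybridised to 1 array, and the labels do not say whether pools were grown at separate times. All 10 members passed the filter on low values and were tested among 16210 probe sets.

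When Rubisco fixes oxygen in place of CO2, it makes phosphoglycolate, which photorespiration carries through the peroxisome as glycolate, glyoxylate and glycine. In mitochondria the P protein decarboxylates glycine, the lipoyl arm of the H protein carries the remaining aminomethyl group, the T protein passes its one-carbon unit to tetrahydrofolate and releases ammonia, and the L protein reoxidises the arm and makes NADH. Serine hydroxymethyltransferase then joins the one-carbon unit to another glycine to form serine. Low CO2 favours oxygen fixation, and the series title places the treatment under photorespiratory stress.

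After 24 h in low CO2, members of the same enzyme system had differences in opposite directions, none past the threshold. Both P protein genes and the H protein gene GDCH were higher in low CO2 on every array, by 1.29 to 1.41-fold. SHM1, GDCH3, GLDT and GDCH2 had overlapping groups and log2 differences from -0.15 to 0.023. The L protein gene mtLPD2 was 1.36-fold lower, and SHM2 was 1.42-fold lower with a wide spread between low CO2 arrays. Limma called 0 of the 10 members at an adjusted p under 0.05, as it called 0% of all probe sets in either direction. At an unadjusted p under 0.05 there were 3 higher and 1 lower members, beside 13.5% and 12.6% of all probe sets. The groups did not overlap for 5 of the 10 members, 4 of them higher and 1 lower, beside 14.6% higher and 14.3% lower of all probe sets.

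Low CO2 replicate 1 resembled the ambient arrays. Over the 16210 probe sets, as a description with no test, it correlated at r = 0.980 to 0.986 with ambient arrays and at 0.947 to 0.962 with low CO2 replicates 2 and 3, which correlated at 0.992 with each other. The array is kept under its label, and whether a swapped sample, a weaker treatment or another cause lies behind its values was not tested. Values are therefore also given without it. That fit called 2 members higher and 2 lower, beside 16.8% higher and 18.5% lower of all probe sets. Because the array was left out for standing apart, those adjusted p values are likely too small. A fit with array weights, which counted replicate 1 least, called 3 members higher and 2 lower beside 24.1% and 26.9% of all probe sets. Each of the other 5 omissions called 0 members and 0% of all probe sets. Of 5 leaf mesophyll markers, CA1 and RCA were measured, while RBCS1A, CAB1 and LHCB2.2 were not analysed here. The mean level of CA1 and RCA was log2 13.9 on every array. Both lie near the top of the measured range, where values can respond less than in proportion, so a change in them could be understated.

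The P protein, which binds pyridoxal phosphate and performs the decarboxylation, is encoded by GLDP1 and GLDP2. GLDP1 read log2 13.06, 13.30 and 13.25 on low CO2 replicates 1, 2 and 3, and 12.80, 12.73 and 12.64 on ambient replicates 1, 2 and 3. Every low CO2 array was above every ambient array, and the gap between the groups, 0.25, was about as wide as the range of the low CO2 arrays. The difference was 0.48 on the log2 scale (SE 0.12), or 1.39-fold (95% interval 1.15 to 1.69; limma adjusted p = 0.121). Without low CO2 replicate 1, GLDP1 rose by 1.47-fold (limma adjusted p = 0.00945).

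GLDP2 read 12.13, 12.38 and 12.25 in low CO2 and 11.80, 11.86 and 11.61 in ambient air, again with separate groups. Its difference was 0.50 (SE 0.12), or 1.41-fold (limma adjusted p = 0.122). Leaving out low CO2 replicate 1, GLDP2 rose by 1.48-fold (limma adjusted p = 0.0131). On low CO2 replicate 1 itself, GLDP1 and GLDP2 stood 0.33 and 0.37 above their ambient means, against 0.50 to 0.63 on replicates 2 and 3. Both P protein genes were thus above every ambient array on low CO2 replicate 1 too, though by less than on the other low CO2 arrays. Of all probe sets, 14.6% were likewise higher on every low CO2 array than on any ambient array.

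**Figure D1:**
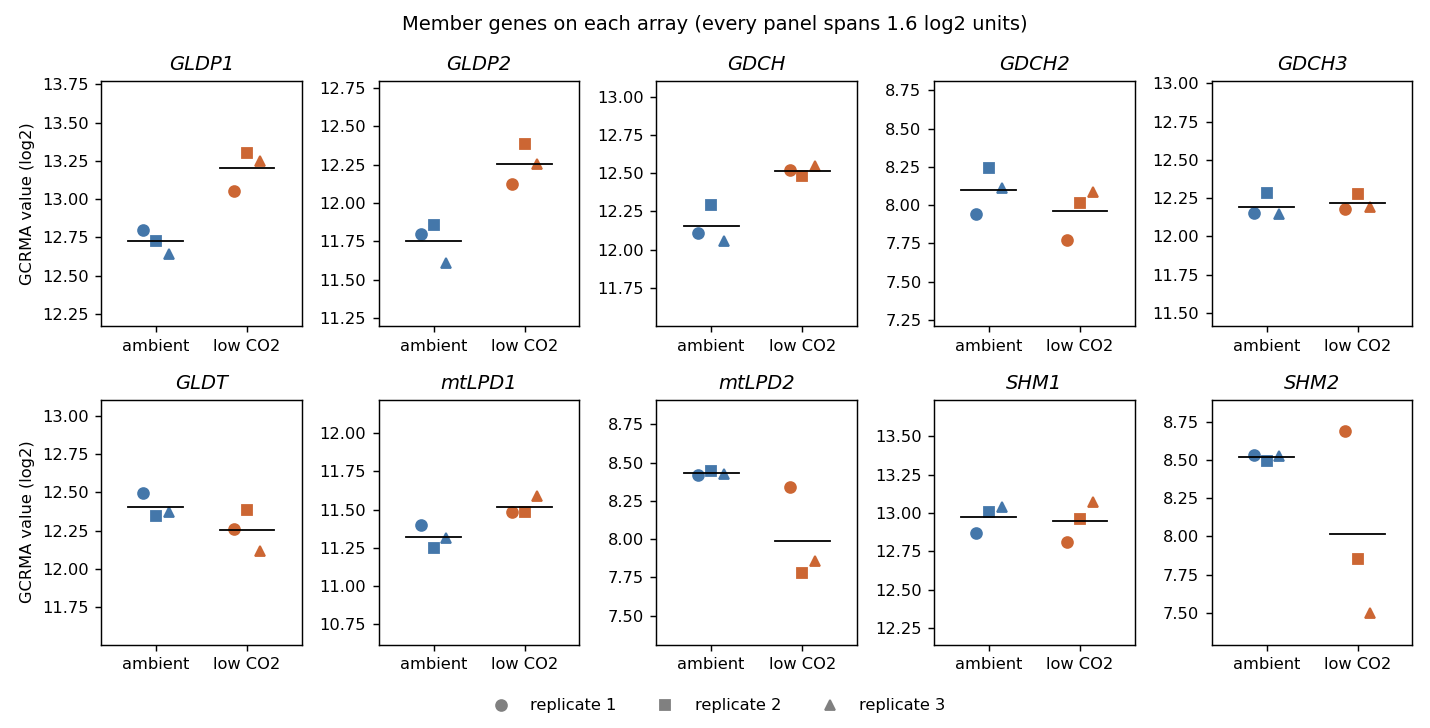
GCRMA expression values (log2, vertical axis) of the 10 member genes on ambient CO2 arrays (blue) and low CO2 arrays (orange); circles, squares and triangles are replicates 1, 2 and 3, and black lines are means of n = 3. All panels cover the same log2 span; the groups are separate for GLDP1, GLDP2, GDCH, mtLPD1 and mtLPD2, and SHM2 on low CO2 replicate 1 (8.69) lies above the ambient arrays while replicates 2 and 3 (7.85 and 7.50) lie below them.

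The H protein carries the lipoyl arm between the other subunits, and its 3 genes did not share a pattern. GDCH read 12.52, 12.48 and 12.55 on low CO2 replicates 1, 2 and 3, and 12.11, 12.29 and 12.06 on ambient replicates 1, 2 and 3. The low CO2 arrays were close together, with replicate 1 among them, and the groups did not overlap. The difference was 0.36 (SE 0.11), or 1.29-fold (limma adjusted p = 0.136), and 0.36 again without low CO2 replicate 1 (limma adjusted p = 0.0527).

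GDCH3 read 12.18, 12.28 and 12.19 in low CO2 and 12.15, 12.28 and 12.15 in ambient air, so the groups covered nearly the same range. Its difference of 0.023 had a 95% interval from 0.856 to 1.21-fold. GDCH2 read 7.78, 8.01 and 8.09 in low CO2 and 7.94, 8.25 and 8.11 in ambient air. The GDCH2 groups overlapped, and its difference of -0.14 (SE 0.14) shrank to -0.050 without low CO2 replicate 1.

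The T protein is the aminomethyltransferase of the complex. GLDT read 12.26, 12.38 and 12.12 in low CO2 and 12.50, 12.34 and 12.37 in ambient air. Low CO2 replicate 2 lay within the ambient range and the other low CO2 arrays below it. The difference was -0.15 (SE 0.12), with an interval from 0.743 to 1.10-fold, so a rise of the size estimated for GLDP1 lay outside the interval for GLDT.

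The L protein, dihydrolipoyl dehydrogenase, is shared with the pyruvate, 2-oxoglutarate and branched-chain 2-oxoacid dehydrogenase complexes of mitochondria. In Arabidopsis mtLPD1 is known as the isoform induced by light in leaves. It read 11.49, 11.48 and 11.59 in low CO2 and 11.40, 11.25 and 11.31 in ambient air. The groups were separate by 0.080, and the difference was 0.20 (SE 0.10), or 1.15-fold (limma adjusted p = 0.268), with 1.16-fold without low CO2 replicate 1.

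mtLPD2 read 8.34, 7.78 and 7.85 on low CO2 replicates 1, 2 and 3, and 8.42, 8.45 and 8.43 on ambient replicates 1, 2 and 3. The ambient arrays lay within 0.030 of each other, low CO2 replicate 1 just below them, and replicates 2 and 3 far below. The difference was -0.44 (SE 0.17; limma adjusted p = 0.164). Without low CO2 replicate 1, mtLPD2 fell by 0.62 on log2 values (limma adjusted p = 0.00555), a 1.53-fold lower expression than in ambient air.

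SHM1 is the isoform that Arabidopsis leaves need for photorespiration. It read 12.81, 12.96 and 13.07 in low CO2 and 12.87, 13.01 and 13.04 in ambient air. The groups overlapped almost completely, and the difference was -0.025 (SE 0.12), with a 95% interval from 0.807 to 1.20-fold. Its sign turned to 0.026 after quantile normalization and to 0.046 without low CO2 replicate 1.

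SHM2, the other mitochondrial isoform, does not replace SHM1 in leaves of Arabidopsis mutants. It read 8.69, 7.85 and 7.50 on low CO2 replicates 1, 2 and 3, and 8.53, 8.49 and 8.53 on ambient replicates 1, 2 and 3. Low CO2 replicate 1 was higher than every ambient array, whereas replicates 2 and 3 were lower than all of them, so the range of the low CO2 arrays was 1.18 against 0.044 for the ambient arrays. The difference was -0.50 (SE 0.29; limma adjusted p = 0.293). Without low CO2 replicate 1, SHM2 fell by 0.84 (limma adjusted p = 0.00470) and was 1.79-fold lower, and without low CO2 replicate 3 the difference was -0.25. In leaf samples, fewer cells of a type and less RNA per cell cannot be told apart.

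**Figure D2:**
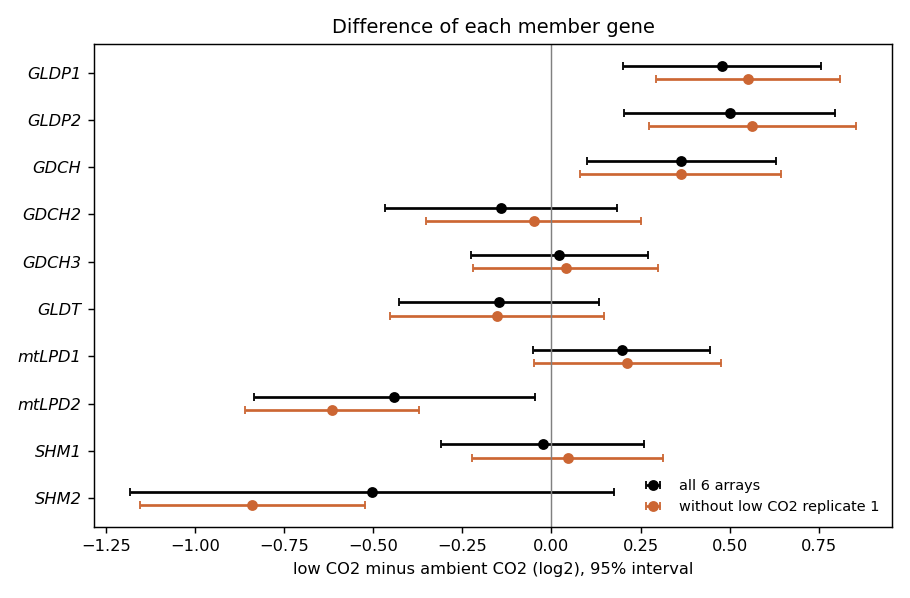
Low CO2 minus ambient CO2 (log2, horizontal axis) for each member gene with its 95% interval from limma, for all 6 arrays (black, n = 3 against 3) and without low CO2 replicate 1 (orange, n = 2 against 3). GLDP1, GLDP2 and GDCH lie to the right of 0 in both fits; mtLPD2 lies to the left, and the interval of SHM2 crosses 0 only with all arrays.

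The change of one paralog relative to another was read within each array, which removes any shift common to the array. The 3 low against 3 ambient within-array ratios were compared for 6 paralog pairs by 2-sided exact permutation tests, in which no p can fall below 0.1. GLDP1 and GLDP2 kept nearly the same ratio, with a change of -0.021 (SE 0.054, exact p = 0.8). GDCH gained on GDCH3 by 0.38, 0.24 and 0.40 on low CO2 replicates 1, 2 and 3, while the ambient arrays lay within -0.053 to 0.053 of their mean. The mean gain of GDCH was 1.27-fold over GDCH3 and 1.42-fold over GDCH2, with groups that did not overlap in either pair. GDCH2 over GDCH3 overlapped, with a change of -0.16 (SE 0.10, exact p = 0.2).

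mtLPD1 gained on mtLPD2 by 0.26, 0.81 and 0.84 on low CO2 replicates 1, 2 and 3, a mean change of 0.64 (SE 0.20), and the groups did not overlap. For GDCH against each of the other H protein genes and for mtLPD1 against mtLPD2, the exact p was 0.1, the smallest possible, and 0.2 after Benjamini-Hochberg adjustment over the 6 pairs. SHM1 over SHM2 changed by -0.34 on low CO2 replicate 1 but by 0.65 and 1.12 on replicates 2 and 3 (mean 0.48, SE 0.43, exact p = 0.4). None of the 6 pairs passed the adjusted threshold, which this design could not reach.

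GLDP1 was set against the other members in the same way, as a description chosen after the values were seen. Relative to 7 of the 9 others, GLDP1 stood higher on every low CO2 array than on any ambient array. As the GLDP1 groups were themselves separate, ratios to members with little or opposite change largely restate its own difference. No share over all probe sets was computed for this count. GLDP1 over GLDT was 0.47, 0.60 and 0.81 above its ambient mean on low CO2 replicates 1, 2 and 3, a mean of 1.54-fold. GLDP1 over SHM1 was 0.50, 0.59 and 0.42 above, a mean of 1.42-fold, with low CO2 replicate 1 between the other low CO2 arrays. The exceptions were GLDP2 and GDCH, against which the ratio of GLDP1 overlapped between groups. On low CO2 replicate 1, too, the ratios of GLDP1 to GLDT and to SHM1 lay above those on all ambient arrays.

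**Figure D3:**
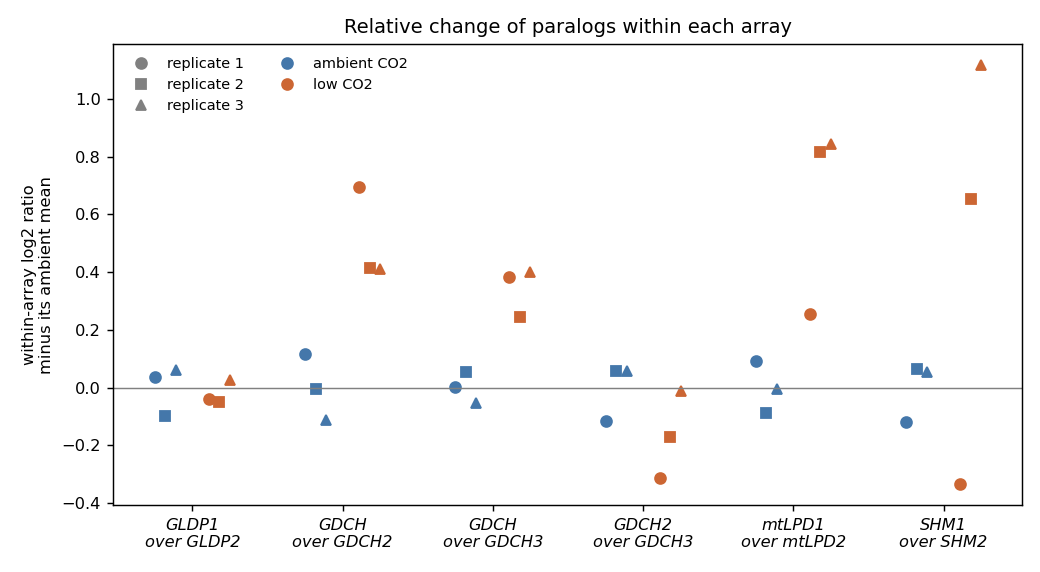
Log2 ratio of paralogs within each array, minus the mean ratio of the ambient arrays (vertical axis), for 6 pairs of member genes; blue is ambient CO2, orange is low CO2, and circles, squares and triangles are replicates 1, 2 and 3. Low CO2 points lie above all ambient points for GDCH over GDCH2, GDCH over GDCH3 and mtLPD1 over mtLPD2; for SHM1 over SHM2 replicate 1 lies below the ambient arrays at -0.34.

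Likeness to a member was measured as the root mean square difference of mean-centred log2 values over the 6 arrays, among 7486 other probe sets with a gene name. Nearest to GLDP1 were CHX20, a cation/proton exchanger gene (0.0173), PnsL2, a subunit of the photosynthetic NDH complex (0.0437), and PHT4;5, a phosphate transporter gene (0.0440). Their differences between groups were 0.50, 0.51 and 0.43. GLDP2 ranked 9 and GDCH ranked 262 by this measure, whereas SHM1 ranked 2442. Nearest to SHM1 were LINC4 (0.0290), a nuclear lamina protein gene, PBC1 (0.0300), a proteasome subunit gene, and TAF8 (0.0327), a transcription factor subunit gene, which differed between groups by 0.022, -0.016 and -0.012.

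Genes around the glycine to serine step were read from 7 related lists with 69 entries, of which 55 were tested. Limma called 0 of them with all arrays, and an unadjusted p under 0.05 was met by 9 higher and 12 lower genes, beside 13.5% and 12.6% of all probe sets. Without low CO2 replicate 1 it called 6 higher and 19 lower, beside the 16.8% and 18.5% of all probe sets given above. The 3 other serine hydroxymethyltransferase genes measured had a median difference of 0.27, where the median over all tested probe sets was -0.029. SHM7, a nuclear member of the family, read 8.81, 8.63 and 8.70 in low CO2 and 8.54, 7.87 and 7.79 in ambient air, where ambient replicate 1 stood apart from the other ambient arrays. SHM7 differed by 0.65 (SE 0.21; limma adjusted p = 0.140). SHM6 differed by 0.27 (SE 0.11) without overlap, and SHM3, the plastid isoform, by -0.11 (SE 0.16) with overlap.

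The phosphorylated pathway makes serine from phosphoglycerate in plastids, apart from photorespiration. Its 6 genes had a median difference of -0.51, and 3 of them lay below ambient air on every array, beside 14.3% of all probe sets. The other 3, PSP1, PGDH2 and PGDH3, differed by -0.15, -0.062 and 0.082 with overlapping groups. The median falls in the gap between these and the 3 lower genes. PSAT1, a phosphoserine aminotransferase, read 8.71, 8.18 and 8.05 in low CO2 and 9.34, 9.03 and 9.18 in ambient air. The groups were separate with low CO2 replicate 1 included, and the difference was -0.87 (SE 0.19; limma adjusted p = 0.118). PSAT2 differed by -1.09 (SE 0.30) and PGDH1, the first enzyme of the pathway, by -0.99 (SE 0.29). Without low CO2 replicate 1 limma called these 3 lower, by 1.07, 1.42 and 1.33, and called 0 of the 6 higher. Of all probe sets, that fit called 18.5% lower and 16.8% higher.

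Among 14 genes of the other mitochondrial complexes that use dihydrolipoyl dehydrogenase, 10 were lower and 4 higher, with a median of -0.18. Their median was -0.033 on low CO2 replicate 1 and -0.41 and -0.43 on replicates 2 and 3. Leaving out low CO2 replicate 1, limma called 7 lower and 3 higher, beside 18.5% and 16.8% of all probe sets. The 3 called higher, named after their values were seen, were branched-chain dehydrogenase genes, BCDH BETA1, DIN4 and BCE2. AT5G09300, a further tested entry of that complex in the list, differed by 0.087 in that fit (limma adjusted p = 0.584). The pyruvate dehydrogenase gene IAR4 differed by -0.52 (SE 0.17), and AT5G55070 and AT3G13930, which have no name in the gene table used, by -0.82 (SE 0.26) and -0.66 (SE 0.22). Of 6 genes for attaching or making lipoic acid in mitochondria, limma called 0 higher and 2 lower without low CO2 replicate 1. These counts stand beside 16.8% and 18.5% of all probe sets, and the median of the 6 was -0.20 over all arrays. The acyl carrier protein gene mtACP2 differed by -0.53 (SE 0.17), mtACP3 by -0.35 (SE 0.22) and mtACP1 by -0.23 (SE 0.15). The plastid dihydrolipoyl dehydrogenase genes ptLPD1 and AT4G16155 overlapped between groups, with differences of -0.11 and 0.043.

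Of the other photorespiratory cycle genes, 18 of 21 were tested, with a median of -0.032. The groups did not overlap for 5 higher and 3 lower genes, beside 14.6% and 14.3% of all probe sets. When low CO2 replicate 1 was left out, limma called 2 higher and 6 lower, beside 16.8% and 18.5% of all probe sets. The genes with the smallest p were the glutamate:glyoxylate aminotransferase gene AOAT2 (0.45, SE 0.12), the chloroplast transporter gene DiT1 (-0.78, SE 0.21) and the catalase gene CAT2 (0.33, SE 0.11). BOU, a mitochondrial carrier gene whose mutants have impaired glycine decarboxylase activity, was named after its values were seen and differed by 0.19 (SE 0.12) with overlapping groups. The mitochondrial malate dehydrogenase genes mMDH1 and mMDH2, whose products can reoxidise the NADH that glycine decarboxylase makes, were likewise named after their values were seen. mMDH2 read 8.03, 6.86 and 6.60 on low CO2 replicates 1, 2 and 3, and 8.05, 8.14 and 8.28 on ambient replicates 1, 2 and 3. Low CO2 replicate 1 thus lay just below the ambient arrays. With all arrays mMDH2 differed by -0.99 (SE 0.35, limma adjusted p = 0.154). The mMDH1 difference was -0.82 (SE 0.36, limma adjusted p = 0.200) with overlapping groups. For mMDH1, low CO2 replicate 1 (11.44) lay above the ambient mean of 11.38. Without low CO2 replicate 1, mMDH1 and mMDH2 fell by 1.25 and 1.42.

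Folate one-carbon genes, which take up the T protein's product, had 6 tested members with a median of 0.084. AT2G38660, unnamed in the gene table, read 6.10, 6.13 and 6.44 in low CO2 and 5.81, 5.79 and 5.81 in ambient air, a separate pair of groups with a difference of 0.42 (SE 0.13). The methionine synthase gene MS3 differed by -0.41 (SE 0.19) and the cycloligase gene 5-FCL by -0.15 (SE 0.14). Without low CO2 replicate 1, limma called AT2G38660 higher and MS3 lower, beside 16.8% and 18.5% of all probe sets. MS1 and MS2 share all values on these arrays and were left out of the median and the counts. Their shared values differed by -0.65 (SE 0.38) with overlapping groups, and by -1.10 without low CO2 replicate 1.

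**Figure D4:**
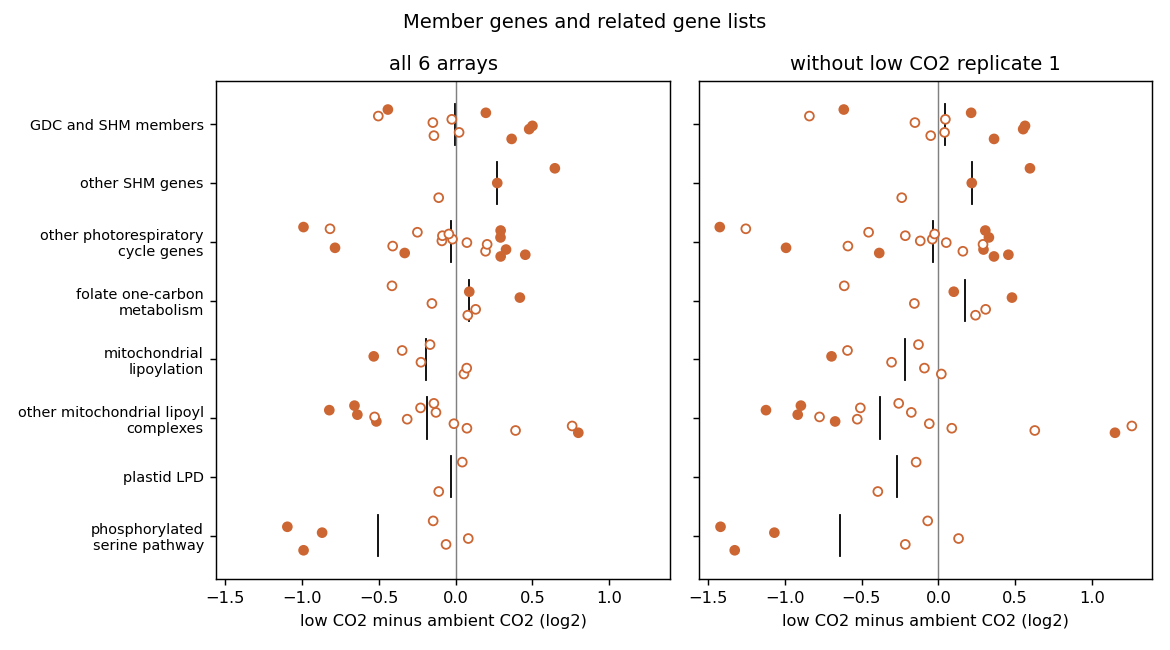
Low CO2 minus ambient CO2 (log2, horizontal axis) for the member genes and 7 related gene lists (rows), with all 6 arrays at left and without low CO2 replicate 1 at right; each circle is a gene, filled where the groups do not overlap on all 6 arrays, and black lines are list medians. The phosphorylated serine pathway has the lowest median among these rows in both panels, -0.51 and -0.64, while the members spread to both sides of 0. In that pathway the filled circles are PSAT1, PSAT2 and PGDH1, and its other genes lie nearer 0.

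Markers of other cell types are given beside these values. The mean level of 5 vascular markers ran from 7.30 to 7.70 in low CO2 and 7.15 to 7.36 in ambient air. For 6 guard cell or stomatal lineage markers it ran from 6.03 to 6.21 and 6.13 to 6.41. Of these 6, 2 were higher and 4 lower in low CO2, from -1.04 for KAT1 to 0.47 for TMM, so their mean covers opposite differences. The mean level of 4 epidermis markers ran from 10.2 to 10.4 and 10.2 to 10.5. That of 4 root markers ran from 5.14 to 5.35 and 5.25 to 5.45. Limma called 0 of the 18 tested with all arrays, where 3 were higher and 4 lower at an unadjusted p under 0.05. That cut was met by 13.5% and 12.6% of all probe sets. Without low CO2 replicate 1, limma called SWEET12, OST1 and TMM higher and KAT1 and FAMA lower. These 3 and 2 genes stand beside 16.8% and 18.5% of all probe sets. All but SWEET12 are from the guard cell or stomatal lineage list. The part of cell makeup in the member differences was not tested.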

How the data were processed

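The deposited log2 values are the authors' GCRMA output, according to the submitters' processing notes, and the arrays were Affymetrix arrays hybridised with biotinylated cRNA, per the labels' protocols. The log base was read from the values. GCRMA draws weak probe sets to a floor, and bright ones, such as most members, can respond less than in proportion near the top of the range (highest value log2 14.2). The sources used here name no genome build. Gene names are RefSeq's (TAIR10.1), where GDCH2, GDCH3 and GLDT stand under their locus only.

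The filter kept 16210 probe sets that reached log2 4 on 3 or more arrays. Low CO2 minus ambient CO2 was fitted with limma 3.58.1 (R 4.3.3) without a replicate term, 2-sided, with Benjamini-Hochberg adjustment over all kept probe sets at 0.05. Paralog ratios were tested by exact permutation over arrays. The limma fit was tested on simulated data, and the permutation test was checked on a small constructed example. The simulated noise was independent between probe sets and arrays. It therefore held no array standing apart as low CO2 replicate 1 does, and cannot show how the fit behaves with one. The number of arrays limits the precision.

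The members, lists and the doubt about low CO2 replicate 1 were chosen with earlier results of these data known. The text names all members and their paralogs where measured, the 3 genes with the smallest p per list, and the 3 nearest to GLDP1 and to SHM1. Exceptions are marked. Deviations of same-numbered arrays from their group means correlated at -0.19, 0.016 and -0.20. With 3 arrays per group, such correlations cannot settle whether the numbers pair the arrays. Alternatives tried were array weights, the replicate block, each array left out, quantile normalization, arrays centred on their medians, a trended robust eBayes, and the filter dropped or raised to log2 5.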

Additional observations from a re-analysis of the deposited data

How the results depend on the processing

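Counts of members and of related genes called stayed at 0 in both directions without a filter, with a floor of log2 5, with trend and robust settings, after quantile normalization, after centring, and with the replicate block, where limma also called 0 members. Over the omission of each array, members called ran from 0 to 2 higher and 0 to 2 lower, and related genes from 0 to 6 higher and 0 to 19 lower, the upper ends without low CO2 replicate 1. Array weights, which gave low CO2 replicate 1 a weight of 0.183 and replicate 2 one of 4.17, called 3 members higher and 2 lower and 12 related genes higher and 22 lower, beside 24.1% and 26.9% of all probe sets. SHM1 turned to 0.026 after quantile normalization, 0.046 without low CO2 replicate 1 and 0.0082 without ambient replicate 3, in a range from -0.088 over the omissions. GDCH3 turned to -0.0085 after centring and -0.0082 without low CO2 replicate 2, in a range up to 0.066. GLDP1 over GLDP2 turned to 0.0089 without ambient replicate 3, in a range from -0.070. The cause of these turns was not tested. Over the omissions GLDP1 ran from 0.43 to 0.55, GLDP2 from 0.43 to 0.56, GDCH from 0.32 to 0.43, mtLPD2 from -0.62 to -0.33 and SHM2 from -0.84 to -0.25. The other 5 paralog ratios kept their direction under every alternative run, and a paired exact test of 3 pairs cannot give a p below 0.25.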
